A study of Homo sapiens with 8 samples.

Results

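Ion channel genes were followed in IMR90, a human lung fibroblast line, during treatment with Nutlin-3a. The set holds every gene whose symbol begins as a potassium channel (KCN and a letter), sodium channel (SCN and a digit), calcium channel (CACN), TRPC, TRPM or TRPV channel, anoctamin (ANO) or ClC chloride channel (CLCN). Of 18216 genes listed with a normalized count, 158 matched, and 7 antisense or intronic transcripts with a hyphen in the symbol were left out. The choice used symbols only, not measured values, although members such as TRPC4AP and KCNQ1OT1 match by name and encode no channel subunit. PolyA RNA was sequenced from 8 libraries in 4 groups of 2, namely DMSO vehicle and Nutlin-3a at 3 µg/mL for 6, 9 and 12 h. Cells of all groups were at passage 28, in DMEM with 10% serum, 3% oxygen and 5% carbon dioxide. Seeding took place on the day before treatment. The single DMSO group carries no time, so hours of Nutlin-3a and hours in culture cannot be told apart. A single fibroblast line was used, and neither the duration of the DMSO treatment nor whether replicates were separate cultures is given in the sources used here. P-values therefore measure only the spread between these libraries, which may be technical.

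Ion channels are membrane proteins whose pore-forming subunits let selected ions cross, and auxiliary subunits set how many channels reach the membrane and when they open. Potassium channels hold a fibroblast's membrane potential negative, whereas sodium and calcium channels depolarize it or admit calcium, and chloride channels and anoctamins carry anions or move lipids between membrane leaflets. Nutlin-3a occupies the p53-binding pocket of MDM2, the ubiquitin ligase that marks p53 for degradation, so that p53 accumulates and its target genes are transcribed. MDM2 and CDKN1A, the latter encoding the cell cycle inhibitor p21, are textbook p53 targets and served as the check of the treatment.

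The normalized count of MDM2 was 1882 and 2196 in DMSO and between 15771 and 17872 in the 6 treated libraries. CDKN1A was at 4954 and 4670.0 in DMSO and between 52553 and 72462 after treatment. Libraries held 21.9 to 33.6 M gene reads (1 M being 1e6), and 3 reads corresponded to a normalized count of 2.46 to 3.75. DMSO replicates lay farther apart than the treated ones: the log2 difference between replicates had an SD of 0.174 over 11461 genes in DMSO and of 0.118 to 0.129 in the treated groups. All 10 fibroblast markers were present, COL1A1 at 437741 to 589696 and DCN at 14006 to 15978. The 6 smooth muscle and pericyte markers were all tested, and summed they were at 17714 to 21872 over the libraries. Among markers of the remaining cell types, CDH5 and PTPRC stayed at or below 6.55, and the summed cardiac and skeletal muscle markers at 8.22 to 15.6. TEK, an endothelial receptor, was however at 1927 to 2019 in DMSO and at 1396 to 1479 at 12 h, CD68 at 736 to 982 over all libraries, and the neuronal gene SYT1 at 389 to 458 in DMSO and 525 to 566 at 12 h. The part of these levels in the results below was not tested. In RNA from whole cultures, fewer cells of a type and less RNA per cell cannot be told apart.

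Most channel genes were scarce. In DMSO the members' median normalized count was 10.04, against 260.4 over all genes listed. Of the 158 members, 12 had a DMSO mean of at least 1000, 28 lay between 100 and 1000, 39 between 10 and 100, and 79 below 10. Testing required 2 or more libraries with a value of 10 or higher, which 91 members met and 67 did not. Among members, 10 did not exceed 3 reads in any library, the floor used here. Counting error alone limits these statements, and PCR copies were not marked.

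To compare genes, levels in DMSO were divided by the length of their exons in GENCODE release 29. That length joins the exons of all listed transcripts, so a gene expressed as a shorter transcript gets too low a value. TRPC4AP, a TRPC-associated protein and not a channel, had the highest normalized count per kb at 1022. Among channel subunits the calcium-permeable channel TRPV2 stood at 771 per kb, the phospholipid scramblase and channel ANO6 at 734, the modifying potassium subunit KCNG1 at 682 and ANO10 at 670.2. The next were ANO4 at 434, the lysosomal chloride-proton exchanger CLCN7 at 404, the calcium channel accessory subunit CACNA2D1 at 399.6 and the sodium channel SCN9A at 354. Within the potassium families the highest per kb were KCNJ8 (218) among inward rectifiers, KCNK2 (207) among tandem-pore channels and KCNMA1 (142) among calcium-activated channels. The voltage-gated calcium pore subunits were lower, with CACNA1A the highest of them at 50.5 per kb.

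**Figure D1:**
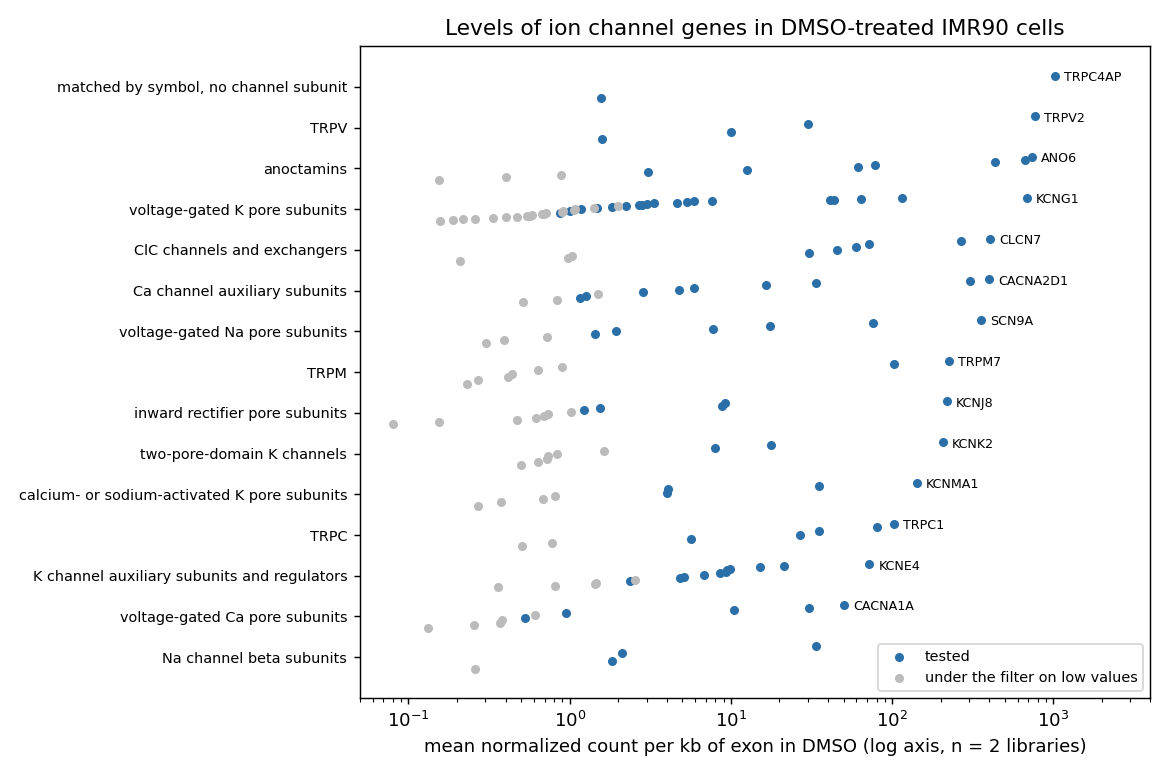
Mean normalized count per kb of exon in DMSO (horizontal log axis, n = 2 libraries) for the 158 members, 1 point a gene, by role (vertical axis, ordered by the highest member); blue points were tested and grey points fell under the filter on low values. TRPC4AP (1022) and TRPV2 (771) lie farthest right, and most roles hold both scarce and abundant genes.

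Members were called about as often as other genes in the upward direction and in a smaller share downward. At 6 h against DMSO 15 of the 91 tested members rose, where 16.1% of the 14074 genes tested did, and 14 fell, where 20.6% did. At 9 h 15 rose and 9 fell, against 16.2% and 19.1% of all genes. At 12 h 20 rose and 10 fell, against 18.5% and 21.4%. The rising shares of the members were 16.5%, 16.5% and 22.0%, and the falling shares 15.4%, 9.89% and 10.99%. Whether these shares differ from those of other genes was not tested. The shares were not matched for level, and members were scarcer (median count in DMSO 10.04, against 260.4 over all genes listed). Level and response therefore cannot be told apart in them. The median log2 change of the tested members was -0.01, 0.05 and 0.03 at 6, 9 and 12 h, against -0.01, 0.01 and 0.01 over all genes tested. The F test over the 4 groups called 39 members, or 42.9%, where it called 49.9% of all genes. After quantile normalization the 12 h split of all genes moved from 2603 higher and 3007 lower to 3369 higher and 2482 lower.

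Of the 29, 24 and 30 members called at 6, 9 and 12 h, 6, 6 and 8 changed at least 2-fold. In each called member both treated libraries lay on the same side of both DMSO libraries. Neither count was taken over all genes tested, so neither is shown to be particular to the members. The 3 comparisons with DMSO share the DMSO libraries, so a shift in DMSO enters all of them. Without replicate 1 of the 9 h group the 9 h counts were 9 higher and 5 lower, and without replicate 2 of the 12 h group 6 members were lower at 12 h. The heat map gives the value of 44 of the 46 called members in each library.

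**Figure D2:**
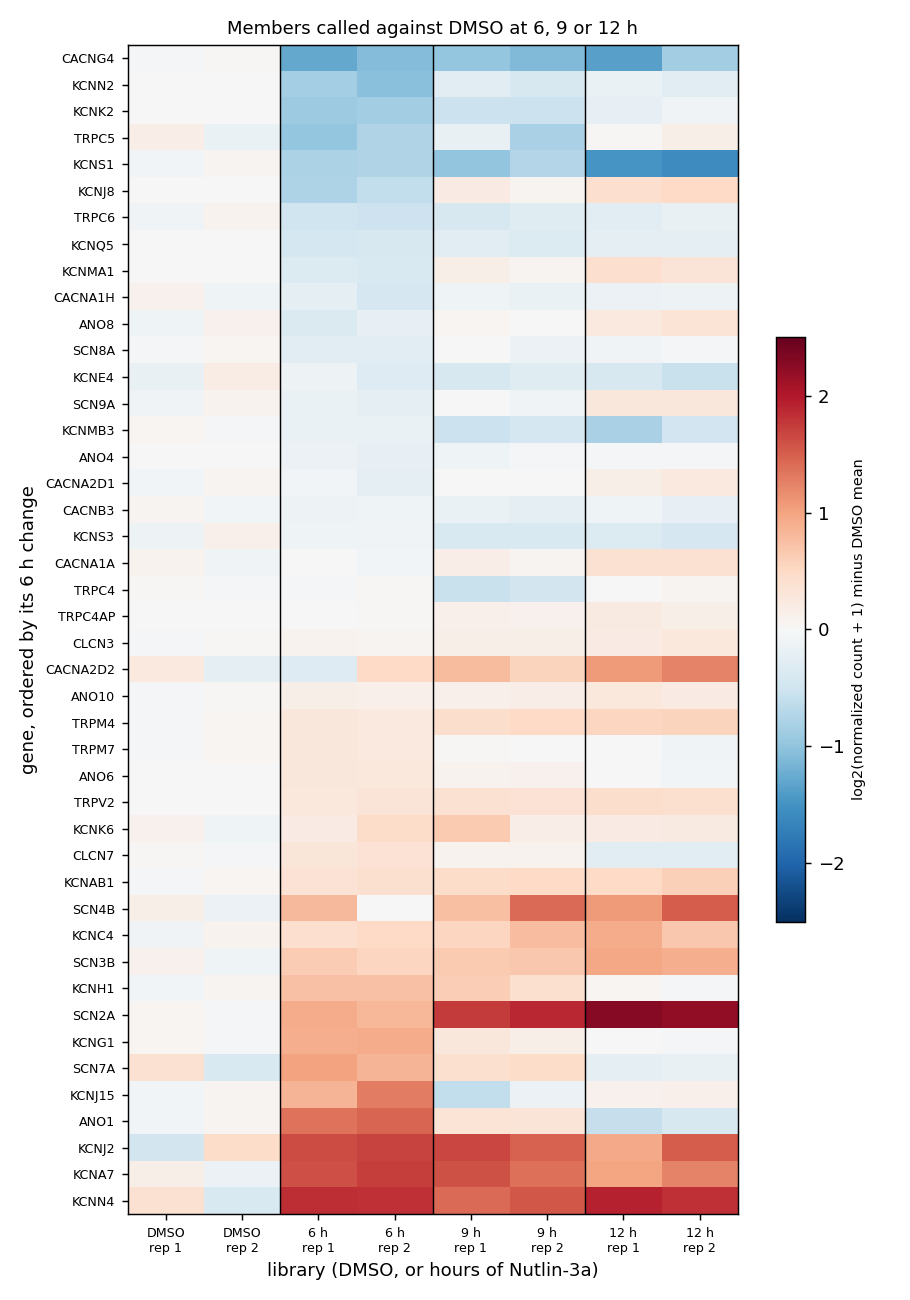
Colour gives log2(normalized count + 1) minus the DMSO mean in each of the 8 libraries (columns) for 44 of the 46 members called against DMSO at 6, 9 or 12 h (rows, ordered by their 6 h change). SCN2A deepens from 6 h to 12 h, KCNG1 and ANO1 are red at 6 h and pale or blue at 12 h, and KCNK2 and KCNN2 are blue mainly at 6 h.

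Among sodium channels, SCN2A showed the largest called change of any member at 12 h. It encodes a voltage-gated pore subunit known from axons of central neurons. Its normalized count was 75.3 and 70.9 in DMSO, 140.1 and 131 at 6 h, 249 and 274 at 9 h, and 355 and 343 at 12 h. Each treated group lay above the one before it with no overlap. The log2 change on the log2(normalized count + 1) scale was 0.88 ± 0.11 (SE) at 6 h, 1.82 ± 0.11 at 9 h and 2.24 ± 0.11 at 12 h (adjusted p = 1.1e-12 in limma). In DMSO its level was 7.79 per kb, against 354 for SCN9A.

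Promoters were read for the p53 half-site, the motif that p53 binds in pairs, because p53 is what the drug releases. RefSeq promoter entries (GRCh38.p14), from 250 bases before to 50 after the gene start, matched 112 of the 158 members with 178 promoters. The half-site has 10 bases, its reverse complement has the same form, so both strands are covered, and it was found in 16 member promoters (8.99%) and in 2329 of 35116 promoters overall (6.63%). A full site, a pair of half-sites at most 13 bases apart, was in none of the member windows and in 10 of all promoters (0.0285%). The authors' reads were placed on hg19, so the coordinates given with the sequences belong to RefSeq's build alone. The following 50-base windows are those of the 4 called members with a half-site, shown 5′ to 3′ on the gene's strand with the half-site in capitals.
SCN2A: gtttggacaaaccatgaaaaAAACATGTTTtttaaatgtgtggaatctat
KCNK2: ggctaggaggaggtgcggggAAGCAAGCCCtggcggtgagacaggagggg
KCNMB3: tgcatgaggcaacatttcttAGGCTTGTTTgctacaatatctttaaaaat
CACNB3: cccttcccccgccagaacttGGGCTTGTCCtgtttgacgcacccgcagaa
The SCN2A window lies at chr2:165240822-165240871 on the plus strand, and its half-site starts at -218 from 1 of the gene's 2 listed starts. For KCNK2 it is chr1:215082652-215082701, plus strand, with the half-site at -65 from 1 of 2 listed starts. The KCNMB3 window is chr3:179251135-179251184, minus strand, at -50 from 1 of 3 listed starts. That of CACNB3 is chr12:48814386-48814435, plus strand, at -74 from 1 of 3 listed starts. SCN2A rose while KCNK2, KCNMB3 and CACNB3 each fell in at least 1 comparison with DMSO. A match is a description of letters, not of binding.

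SCN9A, a pore subunit best known from sensory neurons, was the most abundant sodium channel. Its counts were 3426 and 3876 in DMSO, 3261 and 3063 at 6 h, 3659 and 3448 at 9 h, and 4433 and 4422 at 12 h. It rose at 12 h by a log2 change of 0.28 ± 0.06 (adjusted p = 0.00054). SCN9A was lower at 6 h (-0.21 ± 0.06, adjusted p = 0.008), a call lost in limma without a trend, without DMSO replicate 2 (-0.12) and without 6 h replicate 2 (-0.16). SCN8A, a further neuronal pore subunit, had 950.0 and 1008 in DMSO and 813 and 807 at 6 h, when it fell by 0.27 on the log2 scale (adjusted p = 0.003). At 12 h it stood at 918 and 960.5, and its change of -0.06 did not pass the test.

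The sodium channel beta subunits, single-pass proteins that modulate gating, were scarce. SCN4B was at 10.8 and 8.59 in DMSO and 21.3 and 29.1 at 12 h, a log2 change of 1.29 ± 0.37 (adjusted p = 0.0094). At 9 h SCN4B was at 16.9 and 27.4, a change of 1.09 that was lost under 6 of 20 alternatives, such as without DMSO replicate 2 (0.94) or 9 h replicate 2 (0.76). SCN3B, a gene known as a p53 target, was at 12.7 and 10.7 in DMSO and 23.7 and 22.9 at 12 h (0.94 ± 0.31, adjusted p = 0.022). The 12 h call of SCN4B was lost without 12 h replicate 2 (1.07), and that of SCN3B without DMSO replicate 2 (0.83) or without 12 h replicate 1 (0.91) or 2 (0.96). At 12 h DESeq2 and the authors' deposited tests called neither, and SCN3B was also not called with group weights.

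Of the 38 voltage-gated potassium pore subunits listed, 19 were tested. At 6 h 4 of them rose and 1 fell, where 16.1% and 20.6% of all genes tested did. These tetrameric channels open on depolarization and repolarize the membrane. KCNG1 encodes a subunit that makes no channel by itself and modifies its partners. It was the most abundant of the class, with 1553 and 1463 in DMSO, 2838 and 2872 at 6 h, 1844 and 1664 at 9 h, and 1525 and 1461 at 12 h. It rose by 0.92 ± 0.06 at 6 h (adjusted p = 1.7e-10) and by 0.22 ± 0.06 at 9 h, whereas the 12 h value (-0.01, adjusted p = 0.87) did not pass. The 9 h call was lost without 9 h replicate 1 (0.14) and in limma without a trend.

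KCNH1, the ether-à-go-go potassium channel found in many tumours, followed a similar course. Counts were 342 and 379 in DMSO, 597 and 601 at 6 h, 549.7 and 473 at 9 h, and 372 and 352 at 12 h. Both early groups lay above DMSO, whereas the 12 h libraries lay among the DMSO values. The log2 changes were 0.73 ± 0.09 at 6 h (adjusted p = 1.4e-06), 0.50 ± 0.09 at 9 h and 0.01 at 12 h, the last without passing the test.

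KCNA7, a Shaker-type subunit, was at 14.7 and 11.8 in DMSO, 42.5 and 46.1 at 6 h, 41.8 and 35.6 at 9 h, and 27.0 and 32.3 at 12 h. Every treated library exceeded both DMSO libraries, and the log2 changes were 1.68 ± 0.26, 1.48 ± 0.26 and 1.11 ± 0.26 (adjusted p = 2.9e-05, 0.00011 and 0.0017). KCNC4, a fast-gating Shaw-type subunit, was at 58.6 and 66.6 in DMSO, 83.8 and 88.4 at 6 h, 91.6 and 108 at 9 h, and 120.3 and 101 at 12 h. Its log2 change was 0.81 ± 0.16 at 12 h (adjusted p = 0.00036) and 0.66 ± 0.16 at 9 h. The 6 h value of KCNC4 (0.46) passed but was lost under 7 of 21 alternatives, among them without DMSO replicate 1 (0.37) or without 6 h replicate 1 (0.49) or 2 (0.42). Its 9 h call was lost without 9 h replicate 2 (0.54).

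Downward changes in this class concerned 3 genes, all called at 12 h, when 21.4% of all genes tested fell. KCNQ5, a subunit of the slow M-type current, was at 438 and 444 in DMSO, 323 and 332 at 6 h, 363 and 347 at 9 h, and 371 and 379 at 12 h. It fell by 0.43 at 6 h on the log2 scale (adjusted p = 0.00032). The 9 h fall of KCNQ5 (-0.31) was lost without 9 h replicate 2 (-0.28). Its 12 h fall (-0.23) was lost under 8 of 21 alternatives, including quantile normalization (-0.14) and leaving out DMSO replicate 2 (-0.22) or 12 h replicate 1 (-0.22) or 2 (-0.25). KCNS1, a silent modifier subunit, was at 25.4 and 27.9 in DMSO and 9.00 and 8.32 at 12 h, with 15.0 and 15.4 at 6 h between them. It fell by 1.52 on the log2 scale at 12 h (SE 0.34, adjusted p = 0.0012), while -0.77 at 6 h and -0.86 at 9 h did not pass. KCNS3, its relative, was at 267 and 315 in DMSO and 228 and 217 at 12 h (-0.38 ± 0.10, adjusted p = 0.0053). The 9 h value of KCNS3 was -0.38 as well, and both calls were lost without DMSO replicate 2 (-0.26), the 12 h call also without 12 h replicate 2 (-0.35).

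**Figure D3:**
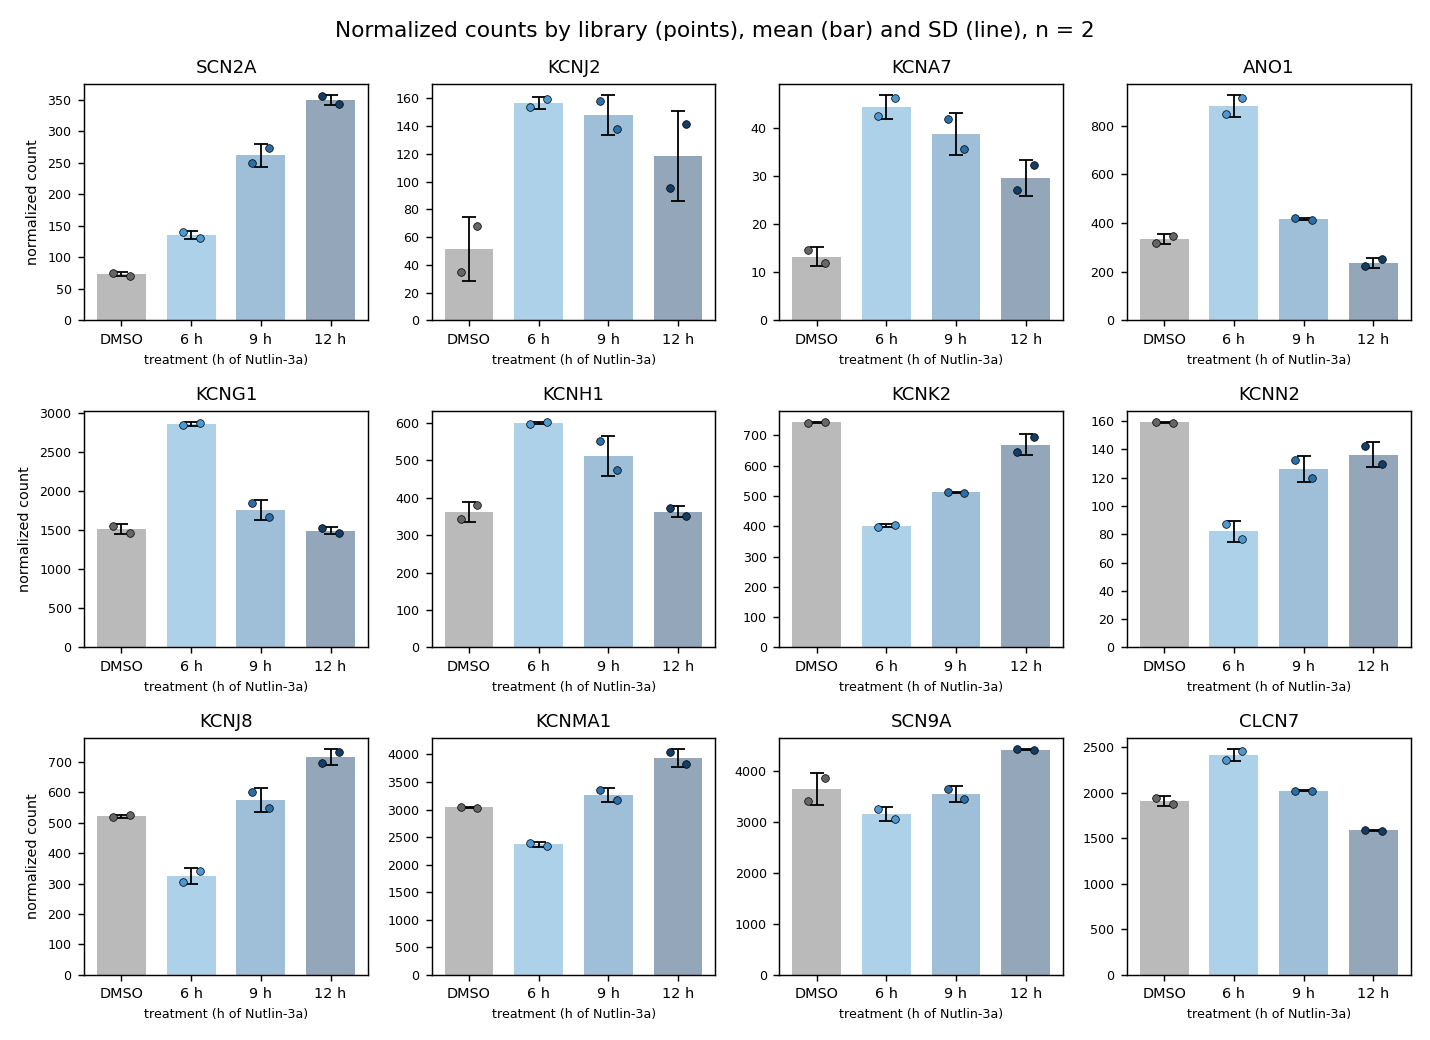
Normalized counts (vertical axes from 0) in DMSO and at 6, 9 and 12 h of Nutlin-3a for 12 members; points are libraries, bars means and lines SDs, n = 2. SCN2A climbs from about 73.1 to 349 at 12 h, ANO1, KCNG1 and KCNH1 are highest at 6 h, and KCNK2, KCNN2, KCNJ8 and KCNMA1 are lowest at 6 h.

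Calcium-activated potassium channels hyperpolarize the cell when cytosolic calcium increases. Of 4 tested genes of calcium- or sodium-activated channels, 3 were called against DMSO at any time. That count was not taken over all genes tested. KCNMA1, the large-conductance BK channel, was at 3045 and 3035 in DMSO, 2395 and 2339 at 6 h, 3355 and 3172 at 9 h, and 4049 and 3824 at 12 h. The 6 h libraries lay below DMSO and the 12 h libraries above it, with changes of -0.36 ± 0.05 (adjusted p = 1e-05) and 0.37 ± 0.05 (adjusted p = 5.2e-06). KCNN2, a small-conductance channel, was at 159 and 159 in DMSO, 87.6 and 76.9 at 6 h, 132 and 119.7 at 9 h, and 142 and 130.1 at 12 h. It fell by 0.95 at 6 h (SE 0.13, adjusted p = 1e-05), and the later values of -0.34 and -0.22 did not pass. KCNN4, the intermediate-conductance channel of blood cells and proliferating fibroblasts, was at 11.7 and 6.45 in DMSO, 33.8 and 33.6 at 6 h, 24.9 and 27.4 at 9 h, and 36.0 and 33.3 at 12 h. All 6 treated libraries exceeded DMSO, with log2 changes of 1.83 ± 0.30, 1.48 ± 0.30 and 1.87 ± 0.30 (adjusted p = 6.7e-05, 0.00063 and 4.2e-05).

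Inward rectifiers conduct best near the resting potential and stabilize it. KCNJ2, the classical strong rectifier, was at 35.2 and 67.7 in DMSO, 154 and 159.5 at 6 h, 158 and 138 at 9 h, and 95.8 and 142 at 12 h. The DMSO replicates lay far apart, yet every treated library exceeded both. The log2 changes were 1.66 ± 0.22, 1.58 ± 0.22 and 1.24 ± 0.22 (adjusted p = 5.2e-06, 8.8e-06 and 0.00013), and the last was 0.77 without DMSO replicate 1, still past the threshold. KCNJ2-AS1 overlaps KCNJ2 on the opposite strand and was at 5.86 and 8.59 in DMSO and 13.1 and 26.0 at 12 h, and whether the counting used strand is not given in the sources used here. Reads of the pair therefore cannot be told apart.

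KCNJ8, the pore of the ATP-sensitive channel of vascular and mesenchymal cells, was at 518 and 525 in DMSO, 305 and 342 at 6 h, 602 and 547 at 9 h, and 698 and 735 at 12 h. As in KCNMA1, 6 h libraries were the lowest and 12 h libraries the highest. It fell by 0.69 at 6 h (SE 0.08, adjusted p = 1.1e-06) and rose by 0.46 ± 0.08 at 12 h (adjusted p = 0.00012). KCNJ15, a rectifier of epithelia, was at 10.8 and 11.8 in DMSO and 21.3 and 28.8 at 6 h (1.07 ± 0.37, adjusted p = 0.03). That call was lost under 7 of 20 alternatives, including leaving out DMSO replicate 1 (1.01) or 2 (1.13) and 6 h replicate 1 (1.28) or 2 (0.86).

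Tandem-pore channels carry background potassium current. KCNK2, the mechanosensitive TREK channel, was at 742 and 743 in DMSO, 398 and 406 at 6 h, 514 and 511 at 9 h, and 644 and 694 at 12 h. Replicates lay close together and no groups overlap. The log2 changes were -0.89 ± 0.07 at 6 h (adjusted p = 5.8e-09) and -0.53 ± 0.07 at 9 h (adjusted p = 5.7e-06), and the 12 h value of -0.15 did not pass (adjusted p = 0.1). KCNK6, the second of the class by abundance, was at 109 and 93.5 in DMSO and 160.3 and 114 at 9 h. Its 9 h change of 0.42 passed (adjusted p = 0.048) but was lost under 14 of 21 alternatives, and it was 0.17 without 9 h replicate 1 and 0.66, still called, without 9 h replicate 2. Other losses of that call came without DMSO replicate 2 (0.30) and without either replicate of the 6 h or 12 h groups (0.42 each).

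Of 11 auxiliary potassium subunits and regulators tested, 1 rose and 2 fell at 12 h, where 18.5% and 21.4% of all genes tested did. KCNE4, a single-pass inhibitor of voltage-gated channels, was at 206 and 269 in DMSO, 178 and 190.0 at 9 h and 179 and 159 at 12 h. It fell by 0.48 at 12 h (SE 0.13, adjusted p = 0.0053), a call lost without DMSO replicate 2 (-0.29), without 12 h replicate 2 (-0.39) and in limma without a trend. The 9 h fall of KCNE4 (-0.35) was lost under 8 of 21 alternatives, such as without DMSO replicate 2 (-0.16) or without 9 h replicate 1 (-0.31) or 2 (-0.40), and was -0.54 without DMSO replicate 1. KCNAB1, a cytoplasmic beta subunit, was at 44.0 and 47.3 in DMSO, 62.7 and 64.9 at 9 h and 64.7 and 69.7 at 12 h. Its 12 h change of 0.55 ± 0.18 passed (adjusted p = 0.018) but was lost without DMSO replicate 1 (0.50) or either 12 h replicate (0.60 and 0.49), in DESeq2 and in the authors' deposited tests. At 9 h the change of KCNAB1 was 0.48, and the call was lost under 12 of 21 alternatives, among them every fit without a library of the DMSO, 9 h or 12 h groups (0.42 to 0.53). KCNMB3, a beta subunit of the BK channel whose exons overlap PIK3CA on the opposite strand, was at 44.0 and 40.8 in DMSO and 23.7 and 30.2 at 12 h. Its fall of 0.64 (adjusted p = 0.035) was lost under 7 of 20 alternatives, including without DMSO replicate 1 (-0.59) or 2 (-0.70) and without 12 h replicate 1 (-0.48).

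Voltage-gated calcium pore subunits couple depolarization to calcium entry. CACNA1A, the neuronal P/Q-type subunit, was at 558 and 494 in DMSO, 522 and 498 at 6 h, 588 and 548 at 9 h, and 680.1 and 682 at 12 h. It rose at 12 h by 0.37 ± 0.08 (adjusted p = 0.00063), the earlier values being -0.04 and 0.11. CACNA1H, a low-threshold T-type subunit, was at 268 and 231 in DMSO and 213 and 184 at 6 h. Its 6 h fall of 0.33 (adjusted p = 0.024) was lost under 8 of 21 alternatives, including without DMSO replicate 1 (-0.22) or 6 h replicate 2 (-0.23). CACNA1C, the L-type subunit of muscle, was at 173 and 189 in DMSO and 181 and 178 at 12 h, and its value of -0.01 did not pass.

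Auxiliary calcium subunits include the extracellular alpha2delta proteins that raise surface channel number. CACNA2D1 was at 2999.7 and 3325 in DMSO, 3027 and 2683 at 6 h and 3478 and 3728 at 12 h. The 12 h rise of 0.19 ± 0.06 (adjusted p = 0.019) was lost without DMSO replicate 1 (0.12), without 12 h replicate 2 (0.14) and in limma without a trend. CACNG4, which encodes a gamma subunit that also serves glutamate receptors, was at 54.7 and 56.9 in DMSO, 22.5 and 25.9 at 6 h, 27.9 and 25.6 at 9 h, and 21.3 and 30.2 at 12 h. Every treated library was below both DMSO libraries by a wide margin, with changes of -1.17 ± 0.25, -1.04 ± 0.25 and -1.11 ± 0.25 (adjusted p = 0.00098, 0.0029 and 0.0014). CACNB3, an intracellular beta subunit, was at 1006 and 915 in DMSO and 849 and 824 at 9 h (-0.20 ± 0.07, adjusted p = 0.027). The call was lost under 8 of 21 alternatives, with values of -0.27 to -0.13 over all of them, among them the fits without DMSO replicate 1 and without either 9 h replicate. CACNA2D2, with 7.82 and 5.37 in DMSO and 14.7 and 16.6 at 12 h, passed at 12 h (1.15 ± 0.45, adjusted p = 0.047) and was lost under 9 of 19 alternatives. These included leaving out DMSO replicate 2 (0.92), either 9 h replicate (1.15 each) or 12 h replicate 1 (1.24) or 2 (1.07). CACNA2D2 met the filter on low values only through treated libraries, where it was high, so its call is no separate support.

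TRPC channels are calcium-permeable cation channels opened downstream of phospholipase C. TRPC6, a diacylglycerol-gated channel, was at 346 and 393 in DMSO, 260.2 and 257 at 6 h, 278 and 299.6 at 9 h, and 304 and 323 at 12 h. TRPC6 fell by 0.51 at 6 h (SE 0.09, adjusted p = 0.00023) and by 0.35 at 9 h, the latter lost without DMSO replicate 2 (-0.26) or 9 h replicate 1 (-0.30). The 12 h value of -0.24 did not pass.

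TRPC4 was at 115 and 109.6 in DMSO, 75.7 and 81.3 at 9 h, and 111 and 119 at 12 h. Its 9 h fall of 0.51 (adjusted p = 0.0063) was lost without 9 h replicate 1 (-0.46), in DESeq2 and in the authors' deposited tests. TRPC5 was at 37.1 and 29.01 in DMSO, 16.3 and 19.2 at 6 h, and 33.6 and 36.4 at 12 h. The 6 h fall of 0.86 (adjusted p = 0.023) was lost without DMSO replicate 1 (-0.68) or 6 h replicate 1 (-0.74), with group weights, in DESeq2 and in the authors' deposited tests. TRPC1, the most abundant TRPC gene with 456 and 476 in DMSO and 512 and 520.3 at 12 h, passed in no comparison with DMSO.

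TRPM4, a calcium-activated channel for monovalent cations, was at 574 and 606 in DMSO, 714 and 699 at 6 h, 799 and 829 at 9 h, and 860.2 and 867 at 12 h. Its changes were 0.26 ± 0.07, 0.46 ± 0.07 and 0.55 ± 0.07 (adjusted p = 0.0042, 1.2e-05 and 1.1e-06). TRPV2, a channel of endosomes and the plasma membrane, was at 2169 and 2163 in DMSO, 2595 and 2696 at 6 h, 2830.0 and 2787 at 9 h, and 2933 and 2846 at 12 h. In both genes all 6 treated libraries exceeded DMSO without overlap, and for TRPV2 the changes were 0.29 ± 0.05, 0.37 ± 0.05 and 0.42 ± 0.05 (adjusted p = 0.00011, 4.3e-06 and 8.7e-07). TRPM7, the magnesium-conducting channel kinase, was at 2251 and 2416 in DMSO and 2831 and 2762 at 6 h, when it rose by 0.26 ± 0.05 (adjusted p = 0.00059). By 9 h it had 2369.9 and 2357, and the values of 0.02 and -0.05 at 9 and 12 h did not pass. TRPC4AP was at 3290.0 and 3305 in DMSO and 3830.3 and 3629 at 12 h, a change of 0.18 ± 0.05 (adjusted p = 0.0062) that was lost without 12 h replicate 1 (0.14).

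Anoctamins are calcium-activated chloride channels or lipid scramblases. ANO1, the calcium-activated chloride channel of epithelia and smooth muscle, was at 319 and 348 in DMSO, 849 and 913 at 6 h, 420.2 and 414 at 9 h, and 223 and 252 at 12 h. The 6 h libraries were the highest and the 12 h libraries the lowest of the 8, below DMSO. It rose by 1.40 ± 0.09 at 6 h (adjusted p = 1.1e-10) and by 0.32 ± 0.09 at 9 h, then stood at -0.49 ± 0.09 at 12 h (adjusted p = 0.00012). The 9 h call was lost without 9 h replicate 1 (0.31, adjusted p = 0.051).

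ANO6, the most abundant member by normalized count, was at 5258 and 5188 in DMSO, 6319 and 6246 at 6 h, 5566 and 5599 at 9 h, and 5188 and 5006 at 12 h. Its rise of 0.27 ± 0.04 at 6 h passed (adjusted p = 8.1e-05), and 0.10 and -0.04 later did not. ANO10 was at 2175 and 2291 in DMSO and 2663 and 2566 at 12 h (0.23 ± 0.05, adjusted p = 0.0013). At 9 h its change of 0.15 passed and was lost under 10 of 21 alternatives (0.11 to 0.18), among them the fits without DMSO replicate 1 or any 9 h or 12 h library. ANO4 was at 1881 and 1915 in DMSO and 1724 and 1656 at 6 h (-0.17 ± 0.05, adjusted p = 0.02), and the call was lost under 5 of 21 alternatives (-0.20 to -0.13), including without 6 h replicate 2. ANO8, by contrast, was at 325 and 376 in DMSO, 273 and 303 at 6 h, and 415 and 445 at 12 h. The 6 h fall of 0.28 (adjusted p = 0.022) was lost without DMSO replicate 2 (-0.18) or 6 h replicate 1 (-0.21), and the 12 h rise of 0.30 (adjusted p = 0.016) without DMSO replicate 1 (0.19) or 12 h replicate 2 (0.25). Limma without a trend, DESeq2 and the authors' deposited tests called neither, and the 6 h call was also lost with quantile normalization and with only the groups compared.

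ClC proteins serve as chloride channels of the surface or as exchangers of endosomes and lysosomes. CLCN7 was at 1944 and 1869 in DMSO, 2362 and 2456 at 6 h, 2022 and 2021 at 9 h, and 1589 and 1582 at 12 h. It rose by 0.34 ± 0.05 at 6 h (adjusted p = 3.4e-05) and fell by 0.27 at 12 h (SE 0.05, adjusted p = 0.00037). CLCN3, an endosomal exchanger, was at 1893 and 1968 in DMSO and 2239 and 2315 at 12 h, a rise of 0.24 ± 0.05 (adjusted p = 0.00093). Its 9 h value of 0.15 passed but was lost without DMSO replicate 1 (0.13), without either 9 h replicate (0.15 each) and under 4 further alternatives.

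Comparing 12 h with 6 h directly, without the DMSO level, 17 members rose and 9 fell, where 14.4% and 17.1% of all genes did. The DMSO and 9 h libraries were still in the fit and entered the estimate of the spread. The members' shares were 18.7% and 9.89%, and the median log2 change was 0.10 against -0.00 over all genes. Without either 12 h replicate the number that rose was 11. Members called higher at 12 h included SCN2A (1.36 ± 0.11), KCNJ8 (1.15 ± 0.08), KCNK2 (0.73 ± 0.07), KCNMA1 (0.73 ± 0.05), KCNN2 (0.72 ± 0.13), ANO8 (0.58 ± 0.09) and SCN9A (0.49 ± 0.06). ANO1 (-1.89 ± 0.09), KCNG1 (-0.94 ± 0.06), KCNH1 (-0.72 ± 0.09) and CLCN7 (-0.60 ± 0.05) were lower at 12 h. The calls of these genes held under every alternative run, the authors' deposited tables offering no such comparison. Smaller changes that also held were those of CACNA1A (0.42), CACNA2D1 (0.34), TRPM4 (0.29), TRPM7 (-0.31) and ANO6 (-0.30). SCN7A, an atypical sodium channel that senses sodium, was at 20.5 and 11.8 in DMSO, 32.5 and 28.8 at 6 h and 13.1 and 13.5 at 12 h. Its change from 6 to 12 h was -1.14 ± 0.32 (adjusted p = 0.0097), lost without 6 h replicate 1 (-1.06) or 12 h replicate 1 (-1.12). The rise of SCN7A over DMSO at 6 h (0.93, adjusted p = 0.029) was 0.55 and lost without DMSO replicate 2, and was lost without 6 h replicate 1 (0.84) or 2 (1.01).

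**Figure D4:**
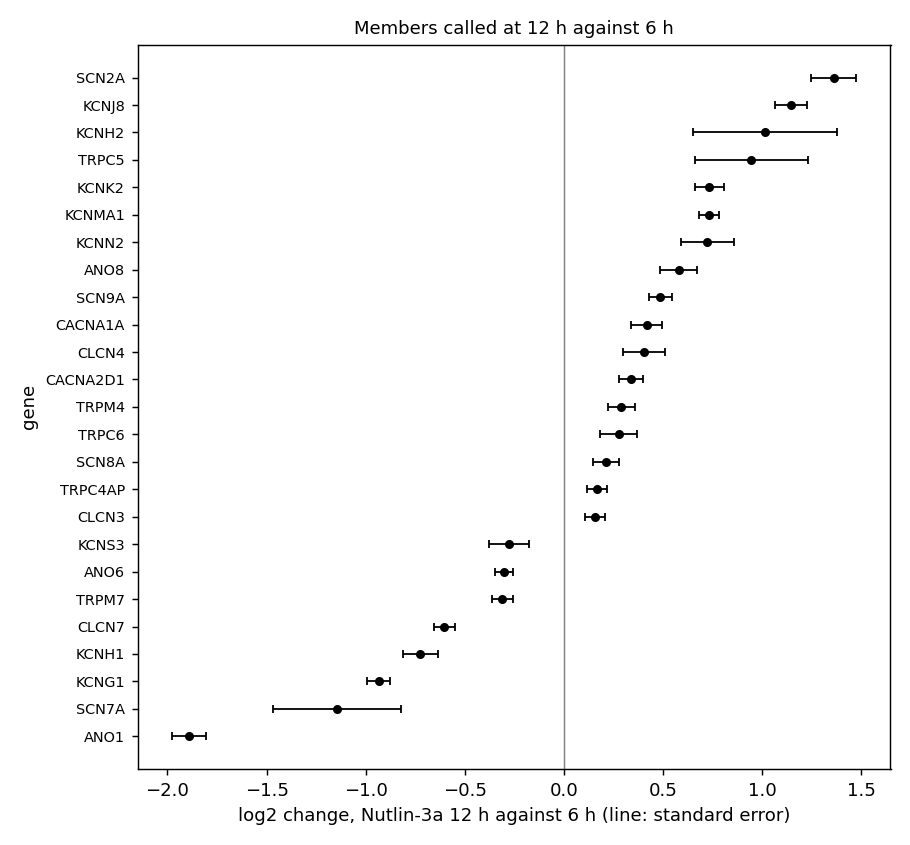
Log2 change at 12 h against 6 h of Nutlin-3a (horizontal axis, on log2(normalized count + 1)) with its standard error (line) for 25 of the 26 members called in that comparison (vertical axis). ANO1 lies farthest left at -1.89 and SCN2A farthest right at 1.36, and the widest errors belong to the low-count genes KCNH2, SCN7A and TRPC5.

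Other channel and transporter genes, in lists chosen by function, gave calls in both directions. Of all genes tested, 16.1% rose and 20.6% fell at 6 h, and 16.2% and 19.1% at 9 h. At 12 h 18.5% of all genes tested rose and 21.4% fell. Whether the lists differ from these shares was not tested. Of 19 tested store-operated and calcium release genes, 4 rose and 4 fell at 6 h, 4 and 3 at 9 h, and 5 and 5 at 12 h. ORAI3, a pore of store-operated calcium entry, was at 359 and 297 in DMSO and at 642 to 704 in the treated libraries (0.98, 1.09 and 1.08 at 6, 9 and 12 h, SE 0.08). STIM2, a sensor of stored calcium that opens such pores, was at 929 and 903 in DMSO and at 667 to 738 after treatment (-0.34, -0.40 and -0.38, SE 0.07). ITPR3, a calcium release channel of the endoplasmic reticulum, fell by 0.26 at 12 h (adjusted p = 0.00095). Among 19 tested other cation channels, 1 fell at 6 h, 1 rose and 2 fell at 9 h, and 2 rose and 3 fell at 12 h. The mechanosensitive channel PIEZO2 fell by 0.36 at 12 h and TMEM38B, a counter-ion channel of the reticulum, by 0.42, while the osmosensitive channel TMEM63B rose by 0.55 ± 0.06 (adjusted p = 0.0014, 0.0001 and 2.4e-07).

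Among 18 tested anion channel genes outside the anoctamins and ClC family, 6 rose and 4 fell at 6 h, 7 and 3 at 9 h, and 5 and 4 at 12 h. The shares over all genes were again 16.1% and 20.6%, 16.2% and 19.1%, and 18.5% and 21.4%. A difference from them was not tested. LRRC8B, a subunit of the volume-regulated anion channel, was at 101 and 98.8 in DMSO, 52.5 and 52.9 at 6 h and 45.01 and 34.3 at 12 h (-1.32 ± 0.19, adjusted p = 1.1e-05). CLCA2, a protein linked to chloride conductance and known as a p53 target, had 1 read in each DMSO library, 5.00 and 4.80 normalized counts at 6 h, 16.9 and 21.9 at 9 h, and 26.2 and 18.7 at 12 h. CLCA2 met the filter on low values only through its 9 h and 12 h libraries, where it was high. Its call at 12 h (adjusted p = 4.5e-06 in limma) is therefore no separate support, and no fold is given against so few reads. TTYH3 rose by 0.33 ± 0.05 at 12 h (adjusted p = 9.8e-06). Of 20 tested pumps and exchangers, 6 rose and 2 fell at 6 h, 4 and 5 at 9 h, and 4 and 6 at 12 h. The same shares of all genes stand beside these counts, and a difference was not tested. SLC12A4, a potassium-chloride cotransporter, rose by 0.61 ± 0.05 at 12 h (adjusted p = 1.4e-09), and ATP2B1, a calcium pump of the plasma membrane, fell by 0.49 (SE 0.06, adjusted p = 1.6e-06).

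Some limits attach to single members. Of the 48 members called in any of the 4 comparisons, 21 have exons under a gene of the opposite strand in GENCODE. Over all 158 members 55 do. Among the 21 are KCNMA1, ANO1, KCNG1, KCNH1, KCNN2, KCNJ8, CLCN7, SCN9A and CACNG4. A gene of the same strand overlaps exons of 3 called members, KCNH1, KCNMB3 and TRPV2, where strand could not separate the reads. KCNMA1-AS1 was at 0 to 5.73 over the 8 libraries. SCN2A, KCNK2, KCNA7 and KCNN4 have no such overlap. Among tested members 19 had a group mean below 10, and 6 of these were called, namely CACNA2D2, KCNH2, KCNJ15, KCNN4, KCNS1 and SCN4B. CACNA2D2, KCNN4 and SCN4B met the filter on low values only with treated libraries, where they were high. Their calls are therefore no separate support. Of the 67 untested members, 62 were below 10 in every library, and 27 of the 158 had at least 1 library at 0.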

How the data were processed

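PolyA RNA-seq of 8 libraries was analysed as deposited. Per the submitters' processing notes, STAR and DESeq2 were used on hg19; these notes list no version, and the counting step is not given in the sources used here. As the table's values show, the deposited signal is gene counts divided by a size factor per library, not raw counts. The deposited values were whole multiples of 1 read in 100% of cases (tolerance 1e-06), which gave the reads for the count tests. Rows for reads assigned to no gene (28.2 to 29.1% of a library) were left out. The authors also deposited log2 fold changes, a Wald statistic score, and p-values with their adjusted p-values for DMSO against each time; the sign was turned here.

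The main test was limma 3.58.1 (R 4.3.3) with an intensity trend on log2(normalized count + 1), which understates changes of low genes, in a single fit of all libraries (4 residual and 15.5 prior degrees of freedom). The test covered the 14074 genes that reached 10 in 2 or more libraries, with Benjamini-Hochberg adjustment over all of them and a threshold of 0.05; genes past it are said to have risen or fallen. Values with ± are log2 changes with standard errors. With groups of 2 an exact permutation test gives no p below 0.333. Alternatives were edgeR 4.0.16 and DESeq2 1.42.0 on the recovered reads, the authors' tests, other pseudocounts, filters and scalings, and each library left out; the fits were tested on simulated data. The genes described are up to 40 members called against DMSO, the most abundant and lowest-p member of each role, the 8 largest called changes at 12 h against 6 h, and up to 3 genes of each other list; the remaining called members are named as well, having been chosen after their values were seen. Results of a few genes are not reported here. The members and lists were chosen with earlier results of these data known. Exon lengths are from GENCODE release 29 and promoters from RefSeq (GRCh38.p14), used for lengths, overlaps and sequences only.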

Additional observations from a re-analysis of the deposited data

Results flagged for a closer look

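Limma's direct test of 12 h against 6 h of Nutlin-3a, in which the DMSO level has no part, called 26 of the 91 tested members. Of these, 25 are given here. The log2 differences of those that were higher at 12 h were 1.36 for SCN2A, 1.15 for KCNJ8, 1.01 for KCNH2, 0.94 for TRPC5, 0.73 for KCNK2, 0.73 for KCNMA1 and 0.72 for KCNN2. Further members higher at 12 h were ANO8 (0.58), SCN9A (0.49), CACNA1A (0.42), CLCN4 (0.40), CACNA2D1 (0.34), TRPM4 (0.29), TRPC6 (0.28), SCN8A (0.21), TRPC4AP (0.17) and CLCN3 (0.16). Lower at 12 h were ANO1 (-1.89), SCN7A (-1.14), KCNG1 (-0.94), KCNH1 (-0.72), CLCN7 (-0.60), TRPM7 (-0.31), ANO6 (-0.30) and KCNS3 (-0.28).

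KCNH2, the hERG potassium channel, was at 14.7 and 14.0 in DMSO, 7.50 and 12.5 at 6 h and 20.5 and 20.8 at 12 h, and its call was lost in edgeR, without 6 h replicate 1 (0.68) and without 12 h replicate 1 (1.03) or 2 (1.002). TRPC5 lost its call in DESeq2 and without 6 h replicate 1 (0.83) or 12 h replicate 1 (1.002) or 2 (0.89). CLCN4 was at 281 and 258 at 6 h and 348 and 365 at 12 h, and lost its call without 6 h replicate 2, without 12 h replicate 2 and in limma without a trend (0.34 to 0.47 over all alternatives). TRPC6, SCN8A and CLCN3 each lost theirs without any 1 of the 4 libraries compared (0.23 to 0.32, 0.18 to 0.25 and 0.13 to 0.18), in DESeq2 and in limma without a trend. The call of KCNS3 was lost under 11 of 20 alternatives, among them limma without a trend, edgeR and DESeq2, with values of -0.31 to -0.24 without each of the 6 h, 9 h and 12 h libraries. TRPC4AP lost its call without 6 h replicate 1 (0.15) or 12 h replicate 1 (0.13) and in limma without a trend, and SCN7A without 6 h replicate 1 (-1.06) or 12 h replicate 1 (-1.12). Groups of 2 libraries are too small for a test of single outlying samples.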

How the results depend on the processing

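Counts of called members stayed within 1.5 times their reported values under every alternative that kept all libraries: 12 to 18 higher and 10 to 15 lower at 6 h, 10 to 17 and 6 to 11 at 9 h, 15 to 21 and 7 to 11 at 12 h, 12 to 22 and 7 to 13 at 12 h against 6 h, and 31 to 41 by the F test. With each library left out in turn, the counts ranged from 9 to 14 higher and 5 to 11 lower at 9 h, 6 to 11 lower at 12 h, and 11 to 22 higher at 12 h against 6 h; the lone sample left in a group is then assumed to vary like the others. With a replicate block the counts were 15 higher and 14 lower at 6 h, 15 and 9 at 9 h, 19 and 11 at 12 h, 17 and 9 at 12 h against 6 h, and 39 by the F test. The numbers are not shown to pair the samples, since same-numbered deviations correlated at -0.15 to 0.09 over 11461 genes. Of 104 calls of named members, ANO10, ANO4, CACNB3 and CLCN4 not among them, 65 held under every alternative. The other 39 were lost under at least 1, and none reversed in those run. The calls of ANO10, ANO4, CACNB3 and CLCN4 were likewise lost under at least 1, except that of ANO10 at 12 h. edgeR on the recovered reads called 2383 genes higher and 2702 lower at 6 h, 2547 and 2558 at 9 h, and 3006 and 2817 at 12 h. Quantile normalization moved the share of higher genes among all called at 12 h from 46.4% to 57.6%, and TMM to 51.7%. Low counts limit members such as KCNN4 and SCN4B, whose standard errors were 0.30 and 0.37.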

Other observations

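Left out of the set by their hyphen were 7 transcripts, of which KCNJ2-AS1 alone passed the filter on low values. It was at 5.86 and 8.59 in DMSO, 13.8 and 14.4 at 6 h, 11.9 and 19.2 at 9 h, and 13.1 and 26.0 at 12 h. KCNJ2-AS1 passed at 12 h with a log2 change of 1.27 (adjusted p = 0.018 in limma). It met the filter through treated libraries alone, where it was high, so the call is no separate support. TRPM2-AS was at 0 and 4.30 in DMSO and at 1.25 to 11.5 in the treated libraries, and it was not tested.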
